A study of Rattus norvegicus with 4 samples.

Results

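The SLC25 carriers are the family of small membrane proteins that pass nucleotides, phosphate, organic acids, amino acids, cofactors and metals across the inner membrane of mitochondria. Sequencing of total RNA measured their transcripts in primary neurons from the cortex of E18 rats (embryonic day 18, from the supplier BrainBits). The neurons received DMSO, a solvent control, or topotecan, which inhibits topoisomerase I. There were 2 libraries per treatment, DMSO replicates 1 and 2 and topotecan replicates 1 and 2. The submitters used topotecan to lower the expression of long genes. The labels name no dose, exposure time or age of the culture, and they do not say that the libraries of a group came from separate cultures, so p-values measure the spread between these libraries, which may be technical. The genes were taken from the deposited count table by symbol: every gene named Slc25a and a number, leaving out Slc25a18, with at least 20 counts summed over the 4 libraries. This gave 39 genes of 21648 gene identifiers. The pattern matched 48 identifiers in all. Of the others 8 had fewer than 20 counts, 2 of them (Slc25a31 and Slc25a45) with no count at all. Slc25a52 (29 counts in all) and Slc25a37 (41) lay just inside the limit, and Slc25a47 (14) and Slc25a48 (11) just outside. Slc25a18, a glutamate carrier of astrocytes, had 3558 and 2624 counts in DMSO against 3 in each topotecan library, and it was left out with that value known.

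Most SLC25 proteins sit in the inner membrane as a bundle of helices built from 3 repeats and exchange one substrate for another. The ADP/ATP and phosphate carriers feed the ATP synthase and export its product. The aspartate-glutamate and oxoglutarate carriers form the malate-aspartate shuttle, which brings the electrons of cytosolic NADH into mitochondria and is a main shuttle of this kind in neurons. Other members admit acylcarnitines for fatty acid oxidation, cofactors for the mitochondrial enzymes, and iron for heme and iron-sulfur clusters.

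The libraries held between 22957786 and 31181382 gene counts. All 10 of 10 pan-neuronal markers passed the low-count filter, and so did all 10 astrocyte and all 10 oligodendrocyte lineage markers. Passing the filter therefore does not check the labelled cell type. Among the pan-neuronal markers Tubb3, the neuronal beta-tubulin gene, stood at 8593 ± 1298 CPM in DMSO and 10980 ± 1025 CPM in topotecan (SD, n = 2 each). CPM is edgeR's normalised count, which relates a gene's count to the TMM-scaled total of its library. The cultures also held glial RNA, which was lower in topotecan. All 10 of 10 astrocyte markers fell, and their summed level went from 5580 and 5695 CPM in the DMSO libraries to 537 and 579 CPM in the topotecan libraries. All 10 of 10 oligodendrocyte lineage markers fell as well, with a summed level of 2739 and 3237 CPM against 84.4 and 66.1 CPM, and Sox10 was at 0 counts in both topotecan libraries. Of 7 tested markers of radial glia and progenitors 6 fell, with a summed level over the list of 363 and 342 CPM against 12.4 and 11.8 CPM. Of the 10 pan-neuronal markers 3 fell and 3 rose. On the log2 scale Syt1 fell by 1.53, Rbfox3 by 0.78 and Map2 by 0.47. Nefm rose by 0.39, Tubb3 by 0.35 and Elavl3 by 0.34. Microglia markers summed to at most 0.516 CPM in any library. The part that these lower marker levels have in the values below was not tested, and in bulk RNA fewer cells of a type and less RNA per cell cannot be told apart.

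Most of the carriers did not pass the test for a change. Of the 37 carriers that passed a low-count filter, 8 fell (21.6%) and 3 rose (8.11%) by edgeR's quasi-likelihood test at a Benjamini-Hochberg adjusted p under 0.05 over all 12162 genes tested. Over all genes tested 23.5% fell and 16.2% rose, so the share that fell was near the background. Falls of at least 0.5 on the log2 scale were called in 4 carriers (10.8%) against 19.2% of all genes, and rises of that size in 1 carrier (2.70%) against 6.63%. The median log2 fold change was 0.00 for the carriers and -0.01 for all genes, and 81.1% of the carriers against 68.0% of all genes lay within 0.5 of no change. Without regard to sign the median log2 fold change was 0.310 for the carriers and 0.313 for all genes. No test of the family against other genes was made. The levels of the topotecan libraries lay below those of both DMSO libraries for 12 carriers (32.4%, against 36.9% of all genes) and above them for 11 (29.7%, against 33.7%). The filter was passed through the DMSO libraries alone by 3 carriers, Slc25a13, Slc25a15 and Slc25a34. These lay below the filter's limit of 0.379 CPM in both topotecan libraries. A difference between the treatments is thus part of how they were set apart. Of 862 genes that passed in this way 75.4% fell, with a median log2 fold change of -2.89. Among the 34 carriers that passed in both treatments 5 fell (14.7%) and 3 rose, where 20.1% of 10974 such genes fell and 17.6% rose.

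The count of rises rested on which DMSO library was used. More carriers rose without DMSO replicate 1 than in the main fit, and so did a larger share of all genes. Without a count filter 5 of 39 carriers rose instead of 3 of 37, where 14.1% of all genes rose. The 5 added without DMSO replicate 1 were Slc25a3, Slc25a4, Slc25a25, Slc25a29 and Slc25a42, and those added without a filter were Slc25a4 and Slc25a29. Some of these had DMSO libraries that stood far apart. Slc25a42 had 23.8 CPM in DMSO replicate 1 and 13.8 CPM in replicate 2, and Slc25a29 was 1.75 times as high in replicate 1 as in replicate 2. In topotecan the replicates of Slc25a42 were at 18.6 and 19.0 CPM. Without DMSO replicate 1 Slc25a42 had a log2 fold change of 0.46 (edgeR adjusted p = 0.011) and without DMSO replicate 2 one of -0.34 (0.0371), so no direction can be given for it. With libraries scaled to 23 short neuronal genes in place of TMM, the median of all genes moved from -0.01 to -0.14 and the share of falls among all calls from 59.2% to 78.9%. Of the 37 carriers 9 then fell and 2 rose, where 27.9% of all genes fell and 7.43% rose.

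**Figure D1:**
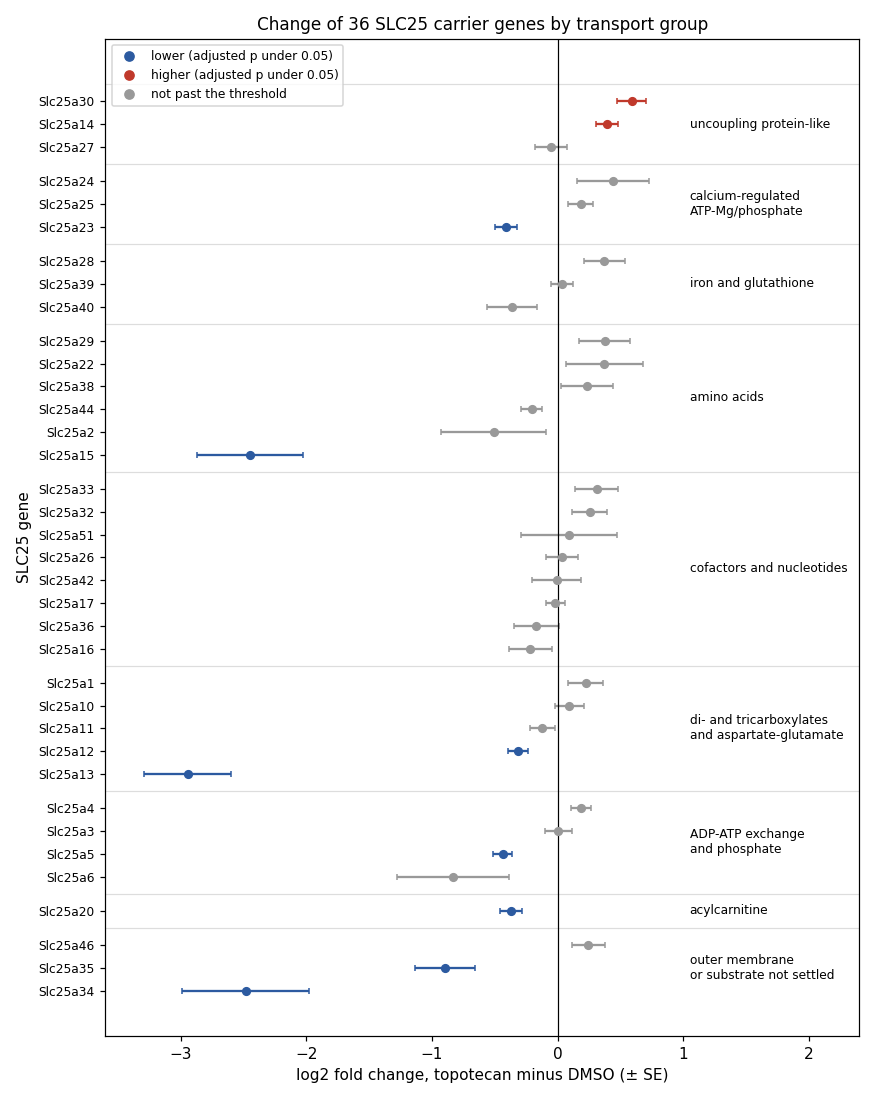
Log2 fold change (topotecan minus DMSO, with its standard error) of 36 SLC25 carriers tested, arranged by what they transport. Blue points fell, red points rose and grey points did not pass an adjusted p of 0.05. Slc25a13, Slc25a34 and Slc25a15 stand apart on the left at -2.95, -2.48 and -2.45, while 29 of the 36 points lie between -0.5 and 0.5.

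**Figure D2:**
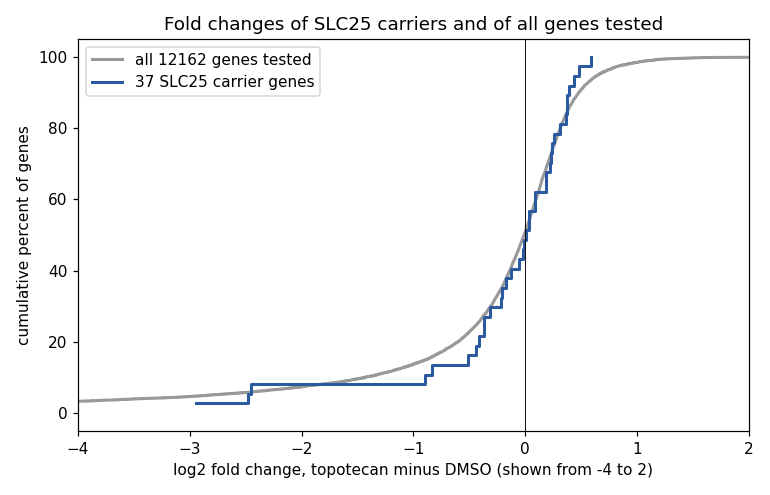
Cumulative distribution of log2 fold changes for the 37 SLC25 carriers (blue) and for all 12162 genes tested (grey), shown from -4 to 2. The curves cross the middle at 0.00 and -0.01, and the carriers reach no further than 0.59 on the right.

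The carriers that exchange ADP for ATP and admit phosphate hold most of the family's counts. Slc25a4, the ADP/ATP carrier ANT1 of muscle and neurons, had 126142 and 89206 counts in DMSO against 145045 and 120961 in topotecan. This was 4574 and 3821 CPM against 4732 and 4797 CPM. The topotecan libraries were above both DMSO libraries, but the DMSO libraries differed by more than that gap, and the log2 fold change of 0.18 (SE 0.08) did not pass (edgeR adjusted p = 0.0913). It passed without DMSO replicate 1 (0.33, adjusted p = 4.3e-04), with the replicate number as a block (0.19, adjusted p = 0.0411) and without a count filter (0.20, adjusted p = 0.00616).

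Slc25a5, the ADP/ATP carrier ANT2 of dividing and many non-muscle cells, had 12043 and 9970 counts in DMSO against 9941 and 7895 in topotecan. Its level fell from 432 ± 6.83 to 319 ± 7.95 CPM (SD, n = 2), a log2 fold change of -0.44 (SE 0.07, edgeR adjusted p = 3.5e-04). The counts of Slc25a4 were 10.5 and 8.95 times those of Slc25a5 in the DMSO libraries and 14.6 and 15.3 times in the topotecan libraries, without correction for gene length. The ratio was higher in both topotecan libraries, and an exact two-sided permutation test over libraries gave p = 0.333, the smallest value that 2 against 2 libraries allow. RefSeq lists 10 further copies or pseudogenes named after Slc25a5, so its reads may be split between near-identical loci. Mki67, a marker of dividing cells, fell in the same libraries from 123 and 87 counts to 10 and 5 (-3.91, SE 0.34, edgeR adjusted p = 6.9e-07), and its part in the fall of Slc25a5 was not tested. Slc25a6, listed as a further ADP/ATP carrier gene of 1.24 kb, had 20 and 16 counts in DMSO against 12 and 10 in topotecan and did not pass (-0.83, SE 0.44). Its row carries no Entrez number, and the RefSeq sequence around its start nearly repeats a stretch around the start of Slc25a5. Its few counts may thus not be separate from those of Slc25a5. Slc25a3, the phosphate carrier, had 12532 and 7981 counts in DMSO against 12111 and 10187 in topotecan. Its levels of 454 and 342 CPM in DMSO enclosed those of 395 and 404 CPM in topotecan, and the log2 fold change was 0.00 (SE 0.11).

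Together the 39 carriers took 0.706% and 0.623% of all counts in DMSO and 0.683% and 0.691% in topotecan. These groups overlapped (exact two-sided permutation test, p = 1.0). Slc25a4 alone made up 65.3% and 62.3% of the family's counts in DMSO and 68.1% and 68.7% in topotecan. Without it the remaining carriers went from 0.245% and 0.235% to 0.217% and 0.216% of all counts, which was lower in both topotecan libraries (exact two-sided permutation p = 0.333, the smallest possible).

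The carriers of the malate-aspartate shuttle changed unequally. Slc25a12, the aspartate-glutamate carrier aralar of neurons and muscle, had 6316 and 5805 counts in DMSO against 5767 and 4933 in topotecan. The level fell from 239 ± 13.9 to 192 ± 5.28 CPM, a log2 fold change of -0.32 (SE 0.08, edgeR adjusted p = 0.00698). Slc25a13, the aspartate-glutamate carrier citrin, best known from liver, had 73 and 62 counts in DMSO against 11 and 8 in topotecan. It dropped from 2.65 ± 0.00602 to 0.338 ± 0.0294 CPM, 7.71-fold lower, with a log2 fold change of -2.95 (SE 0.34, edgeR adjusted p = 1.3e-05). Slc25a13 showed the largest fall of the 37 carriers tested, but it passed the filter through the DMSO libraries alone. Of all genes that passed in that way 75.4% fell, with a median log2 fold change of -2.89.

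The log2 ratio of Slc25a12 to Slc25a13 counts was 6.43 and 6.55 in the DMSO libraries and 9.03 and 9.27 in the topotecan libraries. The groups did not overlap (exact two-sided permutation p = 0.333, the smallest possible). Of the other family members of this kind, Slc25a11, the oxoglutarate-malate carrier, had a log2 fold change of -0.12 (SE 0.10), Slc25a10, the dicarboxylate carrier, one of 0.09 (SE 0.12) and Slc25a1, the citrate carrier, one of 0.22 (SE 0.14), and none of the 3 passed. Slc25a11 passed without DMSO replicate 2 (-0.27, edgeR adjusted p = 0.00913) and was at 0.057 without DMSO replicate 1, so its direction rests on those libraries. Among 6 tested enzymes of the malate-aspartate and glycerol phosphate shuttles 1 fell and 1 rose, where 23.5% of all genes fell and 16.2% rose. Gpd2, the mitochondrial glycerol phosphate dehydrogenase, fell from 36.7 ± 2.68 to 15.3 ± 1.04 CPM (-1.27, SE 0.12, edgeR adjusted p = 2.0e-06). Gpd1l, a glycerol phosphate dehydrogenase-like gene, rose by 0.33 (SE 0.10), but not past the threshold when libraries were scaled to the short neuronal genes. Mdh1, Mdh2, Got1 and Got2, the malate dehydrogenases and aspartate transaminases of the shuttle, lay between -0.07 and 0.12 and did not pass.

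The amino acid carriers held another of the deep falls. Slc25a15, which exchanges ornithine and citrulline for the urea cycle and for ornithine breakdown, had 49 and 32 counts in DMSO against 10 and 6 in topotecan. It was 5.46-fold lower, at 1.57 ± 0.287 against 0.282 ± 0.0625 CPM (log2 fold change -2.45, SE 0.42, edgeR adjusted p = 3.9e-04). Like Slc25a13, Slc25a15 passed the filter through the DMSO libraries alone. Slc25a2, a second ornithine carrier, had 20 and 35 counts in DMSO against 26 and 17 in topotecan, so its groups overlapped (-0.51, SE 0.42). Slc25a44, a carrier of branched-chain amino acids, held the most counts of this group, 5168 and 4805 in DMSO against 5149 and 4341 in topotecan. Its levels of 187 and 206 CPM in DMSO lay above those of 168 and 172 CPM in topotecan, and the log2 fold change of -0.21 (SE 0.08) did not pass (edgeR adjusted p = 0.0585). It passed without DMSO replicate 1 (-0.26, adjusted p = 0.00659) and with scaling to the short neuronal genes (-0.34, adjusted p = 0.0152). Slc25a29, a carrier of basic amino acids, Slc25a22, a mitochondrial glutamate carrier, and Slc25a38, which supplies glycine for heme synthesis, had log2 fold changes between 0.23 and 0.37 and did not pass. These values moved widely with 1 library left out. Slc25a29 was at 0.85 without DMSO replicate 1 (edgeR adjusted p = 9.4e-05) and at 0.037 without DMSO replicate 2. Slc25a22 was at 0.93 (adjusted p = 0.055) and 0.0079 in the same fits. Slc25a38 was at 0.023 without topotecan replicate 1 and at 0.42 without topotecan replicate 2. The Entrez number on the Slc25a22 row is not in the RefSeq table, and that row held between 26 and 65 counts per library, so it may not count the whole gene.

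Of the carriers whose place or substrate is least settled, 2 of 3 fell, where 23.5% of all genes tested did. Slc25a34 was among those that passed the filter through the DMSO libraries alone. Slc25a34 had 26 and 21 counts in DMSO against 5 and 4 in topotecan, 5.59-fold lower (log2 fold change -2.48, SE 0.50, edgeR adjusted p = 0.00149). Slc25a35, its close relative in the family, had 105 and 85 counts in DMSO against 53 and 58 in topotecan, with a log2 fold change of -0.90 (SE 0.24, edgeR adjusted p = 0.00847). The fall of Slc25a35 did not pass without topotecan replicate 1 (-0.69, adjusted p = 0.0868) or with DESeq2 (-0.87, adjusted p = 0.0659). Slc25a46, an outer membrane protein that shapes mitochondria, had 434 and 369 counts in DMSO against 607 and 440 in topotecan and did not pass (0.24, SE 0.13). The 3 deepest falls were thus in carriers with no more than 2.65 CPM in DMSO. In the same libraries the median log2 fold change was -5.54 for astrocyte markers and -6.65 for oligodendrocyte markers.

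Promoter sequences are shown for Slc25a13, Slc25a15 and Slc25a34, the 3 deepest falls and the 3 carriers that passed the filter through DMSO alone. Of all genes that passed in that way 75.4% fell, so falling does not mark these 3 as a set. Those of Slc25a12, a relative of the first that fell by far less, and of Slc25a14, which rose, are set beside them. Each run is RefSeq sequence of the build GRCr8, 5′ to 3′ on the gene's strand, from 250 bases before to 50 bases after the annotated start. Capitals mark matches, on either strand, to 5 motifs. The ETS site, bound by a large family of factors at housekeeping promoters, was searched as CCGGAAG. The GC box, the site of the factor Sp1 and its relatives, was searched as GGGCGG. The motif bound by the factor NF-Y was searched as CCAAT. The core promoter element that the TATA-binding protein contacts was searched as TATAAA. The site of the factor CREB, called CRE, was searched as TGACGTCA. No motif lies inside another. The authors' own build was not stated in these sources. The windows are chr3:76599487-76599786 on the minus strand for Slc25a12, chr4:35328311-35328610 on the minus strand for Slc25a13, chr16:76336620-76336919 on the plus strand for Slc25a15, chr5:159219843-159220142 on the minus strand for Slc25a34 and chrX:132685359-132685658 on the plus strand for Slc25a14.
Slc25a12: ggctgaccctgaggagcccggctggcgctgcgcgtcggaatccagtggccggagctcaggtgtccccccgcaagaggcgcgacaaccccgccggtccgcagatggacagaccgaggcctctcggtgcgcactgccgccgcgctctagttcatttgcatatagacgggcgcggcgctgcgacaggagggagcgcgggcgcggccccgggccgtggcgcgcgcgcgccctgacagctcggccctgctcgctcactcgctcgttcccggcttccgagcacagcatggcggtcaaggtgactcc
Slc25a13: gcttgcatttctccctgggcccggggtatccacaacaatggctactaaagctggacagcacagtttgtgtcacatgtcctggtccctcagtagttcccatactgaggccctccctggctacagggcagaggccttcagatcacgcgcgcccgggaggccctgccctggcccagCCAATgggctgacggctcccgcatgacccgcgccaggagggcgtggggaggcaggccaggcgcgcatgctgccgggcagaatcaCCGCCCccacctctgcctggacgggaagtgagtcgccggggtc
Slc25a15: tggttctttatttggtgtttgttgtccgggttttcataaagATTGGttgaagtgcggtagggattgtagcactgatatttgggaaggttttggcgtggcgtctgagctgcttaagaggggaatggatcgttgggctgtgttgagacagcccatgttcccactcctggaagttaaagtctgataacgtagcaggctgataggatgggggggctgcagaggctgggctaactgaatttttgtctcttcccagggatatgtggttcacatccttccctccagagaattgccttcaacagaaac
Slc25a34: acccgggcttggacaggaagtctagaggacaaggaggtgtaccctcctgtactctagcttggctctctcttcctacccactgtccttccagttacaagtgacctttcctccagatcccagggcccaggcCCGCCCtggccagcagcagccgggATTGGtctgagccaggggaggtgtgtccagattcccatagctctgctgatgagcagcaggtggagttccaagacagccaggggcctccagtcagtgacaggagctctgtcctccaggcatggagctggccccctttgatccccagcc
Slc25a14: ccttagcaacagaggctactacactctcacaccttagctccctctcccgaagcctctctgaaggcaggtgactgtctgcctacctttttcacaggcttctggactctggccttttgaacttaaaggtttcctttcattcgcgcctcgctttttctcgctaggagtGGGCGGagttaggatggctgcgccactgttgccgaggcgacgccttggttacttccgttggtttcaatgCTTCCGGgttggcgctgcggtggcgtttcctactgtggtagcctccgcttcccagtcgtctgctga

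Slc25a12 had no match to any of these motifs, in a window of 72.3% G and C with 41 CpG. Slc25a13 and Slc25a34 each had 1 GC box and 1 CCAAT box, Slc25a15 had 1 CCAAT box in a window of 48.3% G and C with 6 CpG, and Slc25a14 had 1 ETS site and 1 GC box. Slc25a34 had 3 CpG. A promoter entry was matched by symbol for 31 of the 39 carriers, and their median was 62.7% G and C with 21 CpG. For 10142 promoters of tested genes it was 60.7% with 20 CpG. A GC box was present in 25 of the 31 (80.6%), against 60.3% of promoters of tested genes and 33.1% of all 33469 promoters. A CCAAT box was present in 18 (58.1%, against 37.3% and 37.5%), an ETS site in 6 (19.4%, against 16.3% and 8.75%), a CRE in 2 (6.45%, against 3.04% and 1.83%) and a TATA box in 1 (3.23%, against 6.84% and 14.2%). The 3 carriers that fell deepest each had a CCAAT box, as did 18 of the 31. A match is a run of letters and not a measured binding site.

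Slc25a20 carries acylcarnitines into the matrix between the outer carnitine palmitoyltransferase, CPT1, and the inner one, CPT2. Slc25a20 had 3726 and 3081 counts in DMSO against 3288 and 2498 in topotecan, and its level fell from 134 ± 2.22 to 103 ± 5.81 CPM (log2 fold change -0.37, SE 0.09, edgeR adjusted p = 0.00369). This fall did not pass without topotecan replicate 2 (-0.31, adjusted p = 0.0905). Of the genes for the enzymes on either side, Cpt1a and Cpt2 fell far more. Cpt1b had 18 and 29 counts in DMSO against 44 and 28 in topotecan and did not pass (0.46, SE 0.38). Cpt1a had 1321 and 1332 counts in DMSO against 26 and 27 in topotecan, a log2 fold change of -5.78 (SE 0.18, edgeR adjusted p = 1.4e-11). Cpt2 had 929 and 752 counts in DMSO against 32 and 22 in topotecan (-5.09, SE 0.18, edgeR adjusted p = 3.8e-11). Cpt1c, a CPT1-family gene of neurons, was at 159 ± 7.34 CPM in DMSO and 181 ± 1.72 CPM in topotecan and did not pass (0.18, SE 0.08). These data do not show whether its product works beside Slc25a20. Slc25a20, Cpt1a and Cpt2 thus differed in their values within the same libraries. The difference between their fold changes was not tested.

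**Figure D3:**
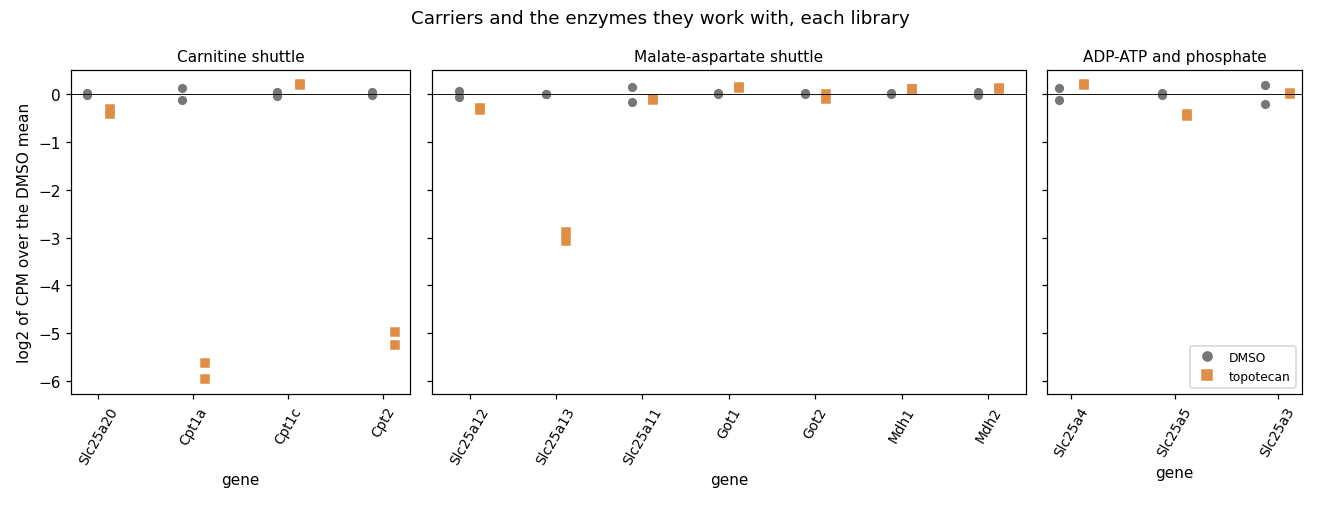
Level of each gene in each library as log2 of CPM over the mean of the DMSO libraries. The genes are carriers, partner enzymes and Cpt1c, in panels for the carnitine shuttle, the malate-aspartate shuttle and ADP-ATP exchange with phosphate. Grey circles are DMSO and orange squares are topotecan. Cpt1a, Cpt2 and Slc25a13 drop far below 0, whereas Slc25a20, Slc25a12 and Slc25a5 lie just below it.

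Rises were called in carriers related to the uncoupling proteins, Slc25a30 and Slc25a14. Slc25a30 (KMCP1), an uncoupling protein-like carrier first described in kidney, had 714 and 681 counts in DMSO against 1330 and 990 in topotecan. It rose from 27.5 ± 2.32 to 41.3 ± 2.92 CPM, a log2 fold change of 0.59 (SE 0.12, edgeR adjusted p = 0.00115). Slc25a14, also known as UCP5 or BMCP1 and abundant in brain, had 2563 and 2353 counts in DMSO against 3986 and 3133 in topotecan. It rose from 96.9 ± 5.55 to 127 ± 4.10 CPM (0.39, SE 0.09, edgeR adjusted p = 0.00284), but not past the threshold when libraries were scaled to the short neuronal genes (0.26, adjusted p = 0.0689). Slc25a27 (UCP4), the brain carrier of the same kind, had levels of 23.7 and 28.3 CPM in DMSO and 26.4 and 23.5 CPM in topotecan, which overlapped (-0.06, SE 0.13). Of the family members that go by other symbols, Ucp2, an uncoupling protein of many tissues, fell by 0.55 (SE 0.20, edgeR adjusted p = 0.0417). Its DMSO libraries stood far apart, with 374 and 200 counts against 235 and 190 in topotecan (11.1 ± 3.53 against 7.60 ± 0.0936 CPM). Mtch1, an outer membrane protein of the family, rose by 0.52 (SE 0.09, edgeR adjusted p = 5.1e-04).

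Cofactors and nucleotides have carriers of their own. Slc25a17, the peroxisomal carrier of the family, had the most counts of these, 6096 and 5269 in DMSO against 6855 and 5468 in topotecan, and a log2 fold change of -0.02 (SE 0.08). Slc25a33 and Slc25a36, the pyrimidine nucleotide carriers, were at 0.31 (SE 0.17) and -0.17 (SE 0.18). Slc25a33 had 181 and 131 counts in DMSO against 243 and 181 in topotecan, and Slc25a36 had 175 and 178 against 173 and 171. Slc25a32, the folate and FAD carrier, was at 0.26 (SE 0.14), Slc25a26, the S-adenosylmethionine carrier, at 0.03 (SE 0.13), and Slc25a16 at -0.22 (SE 0.17). The mitochondrial NAD carrier Slc25a51 had 21 and 27 counts in DMSO against 26 and 30 in topotecan, and Slc25a52, of 3 and 7 against 10 and 9 counts, was too low to test. The row of Slc25a51 carries the Entrez number of Slc25a52, so these rows may not separate the 2 genes.

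**Figure D4:**
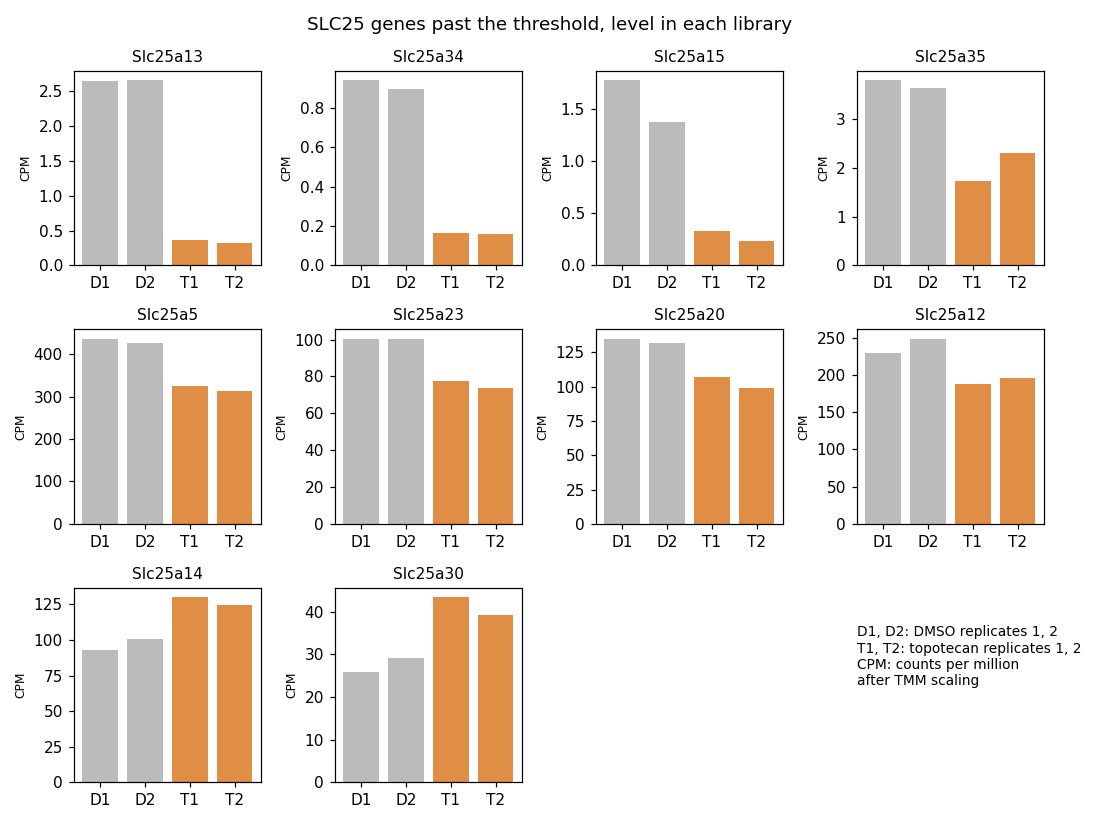
Level in CPM in each of the 4 libraries for 10 SLC25 carriers past the threshold, ordered from the largest fall to the largest rise. Grey bars are DMSO, orange bars are topotecan and each panel has its own axis from 0. In every panel the topotecan bars lie on one side of the DMSO bars.

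The calcium-regulated ATP-Mg/phosphate carriers, which adjust the matrix pool of adenine nucleotides, did not move together. Slc25a23 had 2774 and 2340 counts in DMSO against 2374 and 1856 in topotecan and fell from 100.4 ± 0.256 to 75.5 ± 2.72 CPM (-0.41, SE 0.09, edgeR adjusted p = 0.00224). The value without topotecan replicate 2 was -0.37 with an adjusted p of 0.0502. Slc25a25 had 1404 and 1093 counts in DMSO against 1710 and 1393 in topotecan and did not pass (0.18, SE 0.10), nor did Slc25a24 at 34 and 35 against 55 and 48 counts (0.44, SE 0.29). The counts of Slc25a23 were 1.98 and 2.14 times those of Slc25a25 in DMSO and 1.39 and 1.33 times in topotecan (exact two-sided permutation p = 0.333, the smallest possible).

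None of the 3 tested iron and glutathione carriers passed edgeR's test, and at an unadjusted p under 0.05 there was 1, Slc25a28. Slc25a28, the mitoferrin of most tissues, had 263 and 211 counts in DMSO against 414 and 263 in topotecan (0.37, SE 0.16, edgeR adjusted p = 0.0885). It passed without topotecan replicate 2 (0.54, adjusted p = 0.0404). Slc25a37, the mitoferrin of red cell precursors, had 13 and 8 against 11 and 9 counts and was too low to test. Slc25a39, a glutathione carrier, had 2383 and 1943 counts in DMSO against 2719 and 2141 in topotecan (0.03, SE 0.09), and its relative Slc25a40 had 122 and 107 against 113 and 83 (-0.36, SE 0.20). RefSeq lists 8 copies or pseudogenes named after Slc25a39, so its reads may be shared.

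Genes that handle the carriers or share their task were also read from lists drawn up from textbook knowledge. Of 13 genes of the route that inserts carriers into the inner membrane 5 rose and the other 8 did not pass, with a median log2 fold change of 0.21. Over all genes tested 16.2% rose and the median was -0.01. The 3 with the smallest p were Timm22, the channel of that route, at 0.44 (SE 0.10), Timm8b, a small chaperone of the intermembrane space, at 0.30 (SE 0.08), and Timm29, a partner of Timm22, at 0.47 (SE 0.13). With libraries scaled to the short neuronal genes 1 of the 13 rose, as did 7.43% of all genes. Of 24 tested genes for other mitochondrial transport 5 fell and 2 rose, with a median of 0.11, where 23.5% of all genes fell. The falls with the smallest p were Cpt1a, Cpt2 and Sfxn5, a sideroflexin, which fell from 235 ± 3.99 to 43.1 ± 0.516 CPM (-2.44, SE 0.09, edgeR adjusted p = 3.8e-11).

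Gene span was set beside the fold changes, in a family with few long genes, and its part in them was not tested. Of the 37 tested carriers 25 span under 30 kb. Only Slc25a13, of 183 kb, reached 100 kb among the 39, and the median span was 15.7 kb for the tested carriers against 26.0 kb for all tested genes with a span in GRCr8. Across the 37 tested carriers span and log2 fold change had a Spearman's rho of 0.06, and across 11731 tested genes it was -0.28, both as descriptions over genes that share the same 4 libraries. Slc25a12 (94.7 kb), Slc25a26 (96.6 kb) and Slc25a40 (87.2 kb), the next longest, had log2 fold changes of -0.32, 0.03 and -0.36. Slc25a34 and Slc25a15, the other deep falls, span 4.77 and 23.3 kb. Like Slc25a13 they passed the filter through the DMSO libraries alone.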

How the data were processed

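RNA from 4 libraries of rat cortical neurons was analysed from 1 table of whole-number gene counts, which the authors deposited. The submitters' processing notes list STAR and edgeR without versions or roles. Per the labels' protocols libraries were made with a small RNA kit. Per the sources used here, the authors' build, annotation, counting tool and strand setting are not known, and overlapping or near-identical genes may share reads. The 22641 rows were reduced to 21648 identifiers, since repeats of an identifier held identical counts, and 14 identifiers without a symbol were kept in the totals. Groups came from the titles. Replicates differed beyond sampling noise (chi-square per degree of freedom 12.4 in DMSO and 8.71 in topotecan).

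The test was edgeR 4.0.16 (R 4.3.3) by quasi-likelihood, with TMM scaling, filterByExpr (minimum count 10, minimum total 15) and treatment as the only term, with 2 residual degrees of freedom. It was tested on simulated data. P-values were adjusted over all 12162 genes tested. The SE of a log2 fold change was its absolute value over the root of the F statistic. Alternatives were RLE, upper-quartile and neuronal-gene scaling, no filter, DESeq2 1.42.0, limma-voom (limma 3.58.1), a replicate block and leaving out each library. Spans and promoters came from RefSeq (GRCr8) by Entrez number or symbol. The result of 1 carrier is not reported here, though it is in the counts over the family. The other tested carriers were named, with counts for those past the threshold by 0.5 or more, the one with most counts per group and pairs of relatives, and other counts were added. Members and lists were chosen with earlier results of these data known.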

Additional observations from a re-analysis of the deposited data

How the results depend on the processing

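Over 11 alternatives, 6 of the 11 called carriers kept their direction and call in each. The other 5 (Slc25a12, Slc25a14, Slc25a20, Slc25a23 and Slc25a35) lost the call in at least 1 alternative, and none of the 11 changed sign. The carriers that fell numbered 6 to 10 and those that rose 3 to 8 with 1 library left out, the 8 without DMSO replicate 1. Of all genes 18.8% to 23.7% fell and 9.72% to 20.1% rose in these fits. Without a count filter 5 rose. With a replicate block 8 fell and 4 rose. The titles do not say what the replicate numbers stand for. The replicate differences of the 2 treatments had a correlation of -0.04, which cannot show whether libraries of the same number were paired. DESeq2 gave 7 and 3 (14.3% and 10.4% of all genes), limma-voom 8 and 3 (23.6% and 16.4%). With Slc25a18 kept in the main fit gave 9 and 3 (23.5% and 16.2% of all genes). The mean share of counts on carriers differed by 0.0221 percentage points, topotecan minus DMSO. The groups overlapped, and the SD of the DMSO libraries was 0.0586. Without Slc25a4 the difference was -0.0231. With neuronal-gene scaling the rises were 1 for carrier import, 0 for other mitochondrial transport, 0 for shuttle enzymes and 0 for pan-neuronal markers. Of all genes 7.43% rose with that scaling.

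Of the 26 carriers not called, 10 changed sign in some alternative. With neuronal-gene scaling the log2 values were -0.12 for Slc25a3, -0.10 for Slc25a26, -0.041 for Slc25a51, -0.033 for Slc25a10 and -0.094 for Slc25a39. Slc25a17 was at 0.015 with upper-quartile factors. Slc25a42 was at 0.0040 with RLE, 0.023 with upper-quartile factors, 0.0041 without a filter, 0.035 with the replicate block, 0.012 with DESeq2 and 0.032 with limma-voom. With 1 library left out the values ran from -0.18 to 0.24 for Slc25a3, -0.95 to 0.081 for Slc25a2, -0.037 to 0.0060 for Slc25a17, -0.34 to 0.46 for Slc25a42, -0.023 to 0.091 for Slc25a26, -0.18 to 0.41 for Slc25a51, -0.27 to 0.057 for Slc25a11 and -0.17 to 0.079 for Slc25a27. The cause was not tested. Carriers with under 100 counts over the 4 libraries, among them Slc25a15 and Slc25a34, are limited by depth.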
